A study of Mus musculus with 12 samples.

Results

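The 30 genes described here make, sense and move cholesterol, and they are 30 of the 55401 genes in the tables of adult neural stem/progenitor cells (aNSPCs) grown with or without NAD+. They were chosen by gene name from a list of mevalonate and sterol enzymes, sterol-sensing regulators, and uptake and efflux genes, and the list was drawn up with the FPKM values of all 12 samples and the NAD+ comparisons made from them already known. Fold changes and adjusted p-values below therefore describe these samples and are no independent evidence of a direction. All 30 genes were found in every sample. Of these, 19 encode enzymes, 5 are regulators of the sterol-sensing machinery, 2 act in uptake and transport inside the cell, and 4 belong to efflux and to the liver X receptors (LXRs) that control it.

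Cells build cholesterol from acetyl-CoA through mevalonate and farnesyl diphosphate to squalene, which is closed to lanosterol and trimmed to cholesterol. Transcription of most of these enzymes is driven by sterol regulatory element-binding proteins (SREBPs), which SCAP carries out of the endoplasmic reticulum when sterols are low and which INSIG proteins hold back when sterols are high. LXRs sense oxidised sterols and turn on the efflux pumps. The brain makes its own cholesterol, since lipoproteins of the blood do not cross into it, and glia and the myelin sheath use much of it.

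The cells came from the forebrains of C57BL/6 mice, 8 to 10 weeks old, and were grown in medium with B27, EGF and FGF-2 for proliferation, or with 1 µM retinoic acid and 5 µM forskolin for differentiation. Each condition was kept without NAD+ (Ctrl) or with 1 mM NAD+ (NAD+), which gave 4 groups of 3 samples: proliferation Ctrl, proliferation NAD+, differentiation Ctrl and differentiation NAD+. No group is labelled as carrying a gene deletion or transgene. The labels name aNSC as the source, although their extraction text speaks of brain samples. The treatment field of the labels reads untreated for all 12 samples, so the groups follow the sample titles, and the study calls the replicates biological without saying whether they were separate cultures or animals, so p-values measure only the spread between these samples. Values are FPKM, fragments counted on a gene scaled to its transcript length and to the mapped fragments of the sample, as the authors computed them. Read depth is unknown, and the FPKM of all genes summed to between 308828 and 363330 per sample. The highest sum was that of proliferation Ctrl replicate 1, against 311162 and 314233 in the other samples of its group. That sample also differed from them in Mki67, a marker of dividing cells, at 19.8 FPKM against 39.7 and 40.0 FPKM. Proliferation and differentiation stand in separate tables, so growth condition and table cannot be told apart. Neural stem markers were present, with Hes5 at 93.0, 71.5 and 72.0 FPKM in proliferation Ctrl and 16.4, 15.6 and 16.5 FPKM in differentiation Ctrl, while 5 microglial markers summed to at most 0.3 FPKM and the endothelial markers to at most 0.19 FPKM in any sample.

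The start-site regions of 5 of these genes are shown because they differ in role and in the motifs they hold: 3 enzymes, 1 sterol sensor and 1 efflux pump. Each runs from 250 bases before to 50 bases after the transcription start in the RefSeq annotation of mouse build GRCm38.p6, written 5′ to 3′ on the strand of the gene. Capitals mark matches on either strand to CCAAT, the box bound by NF-Y, and to TCACNCCAC, the core of the sterol regulatory element. A box on the opposite strand reads ATTGG here. Hmgcs1 lies at chr13:119690101-119690400 on the plus strand, Idi1 at chr13:8885356-8885655 on the plus strand, Lss at chr10:76531355-76531654 on the plus strand, Insig1 at chr5:28071162-28071461 on the plus strand and Abca1 at chr4:53159846-53160145 on the minus strand.
Hmgcs1: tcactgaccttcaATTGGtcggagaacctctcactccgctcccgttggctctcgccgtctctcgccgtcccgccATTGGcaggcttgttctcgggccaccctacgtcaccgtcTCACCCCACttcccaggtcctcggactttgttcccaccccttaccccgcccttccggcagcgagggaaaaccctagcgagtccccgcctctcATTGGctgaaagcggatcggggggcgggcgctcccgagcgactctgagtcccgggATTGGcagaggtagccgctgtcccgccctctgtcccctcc
Idi1: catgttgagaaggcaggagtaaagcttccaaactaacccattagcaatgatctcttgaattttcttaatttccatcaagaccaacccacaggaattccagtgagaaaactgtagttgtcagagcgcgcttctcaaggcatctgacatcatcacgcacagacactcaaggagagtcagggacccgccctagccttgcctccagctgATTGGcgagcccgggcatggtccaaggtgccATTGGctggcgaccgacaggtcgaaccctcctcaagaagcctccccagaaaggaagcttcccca
Lss: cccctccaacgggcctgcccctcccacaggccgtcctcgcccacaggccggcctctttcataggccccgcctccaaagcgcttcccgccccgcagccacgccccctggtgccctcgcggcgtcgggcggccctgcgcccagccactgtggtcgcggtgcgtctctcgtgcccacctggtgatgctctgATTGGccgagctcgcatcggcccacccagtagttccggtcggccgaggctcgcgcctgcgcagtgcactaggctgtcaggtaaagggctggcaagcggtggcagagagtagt
Insig1: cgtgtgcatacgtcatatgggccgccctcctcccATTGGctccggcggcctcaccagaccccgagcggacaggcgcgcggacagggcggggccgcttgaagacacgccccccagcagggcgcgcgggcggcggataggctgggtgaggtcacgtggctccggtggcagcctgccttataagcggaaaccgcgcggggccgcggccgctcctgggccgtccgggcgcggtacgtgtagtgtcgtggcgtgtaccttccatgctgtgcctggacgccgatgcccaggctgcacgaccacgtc
Abca1: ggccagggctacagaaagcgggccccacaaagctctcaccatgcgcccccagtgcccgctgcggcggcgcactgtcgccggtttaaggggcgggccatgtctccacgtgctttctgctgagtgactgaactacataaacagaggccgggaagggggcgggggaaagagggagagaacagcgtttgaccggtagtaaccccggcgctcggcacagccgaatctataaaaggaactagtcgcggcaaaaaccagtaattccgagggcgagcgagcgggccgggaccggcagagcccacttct

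The Hmgcs1 region held the sterol element core 137 bases before the start and 4 CCAAT boxes. The Idi1 region held 2 CCAAT boxes, and the Lss and Insig1 regions 1 each. The Abca1 region held neither motif. RefSeq start-site regions were found for 25 of the 30 genes and numbered 34, since some genes have several. CCAAT was present in 21 of these 34 regions (61.8%), against 37.4% of all 32851 mouse start-site regions and 37.8% of the 14851 that belong to genes tested here. Among the enzymes that act after squalene, 9 of 11 regions (81.8%) held CCAAT, and among the enzymes that act before it 6 of 8 (75.0%), whereas none of the 4 regions of efflux and LXR genes did. The sterol element core was found in 1 of the 34 regions (2.94%), against 1.24% of all regions. The motif GGGCGG, the box bound by SP1, was in 25 of the 34 (73.5%), against 60.2% of the regions of tested genes and 35.7% of all. These shares are descriptions: a match is not a bound site, and a region without one says only that these letters were not in this window.

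In proliferation Ctrl cells, Hmgcs1 had the highest FPKM of the 30 genes at 369 ± 39.4 (SD, n = 3), followed by Cyp51 at 121 ± 12.6 and Insig1 at 112 ± 12.3, and these last 2 lay within each other's spread. The lowest were Mylip at 0.493 ± 0.193, Nr1h3 at 0.507 ± 0.0208 and Abcg1 at 0.0567 ± 0.00577, the last of them close to the 0.01 FPKM steps of the tables. The 19 enzymes summed to 1214 ± 101 FPKM in proliferation Ctrl, 795 ± 102 in proliferation NAD+, 458 ± 28.9 in differentiation Ctrl and 291 ± 30.4 in differentiation NAD+, the last 2 from a table that may have been normalized separately. The sum was 34.5% below its own Ctrl with NAD+ in proliferation and 36.6% below it in differentiation, and no 2 of the 4 groups overlapped. The sum was lowest where differentiation medium and NAD+ were combined.

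**Figure D1:**
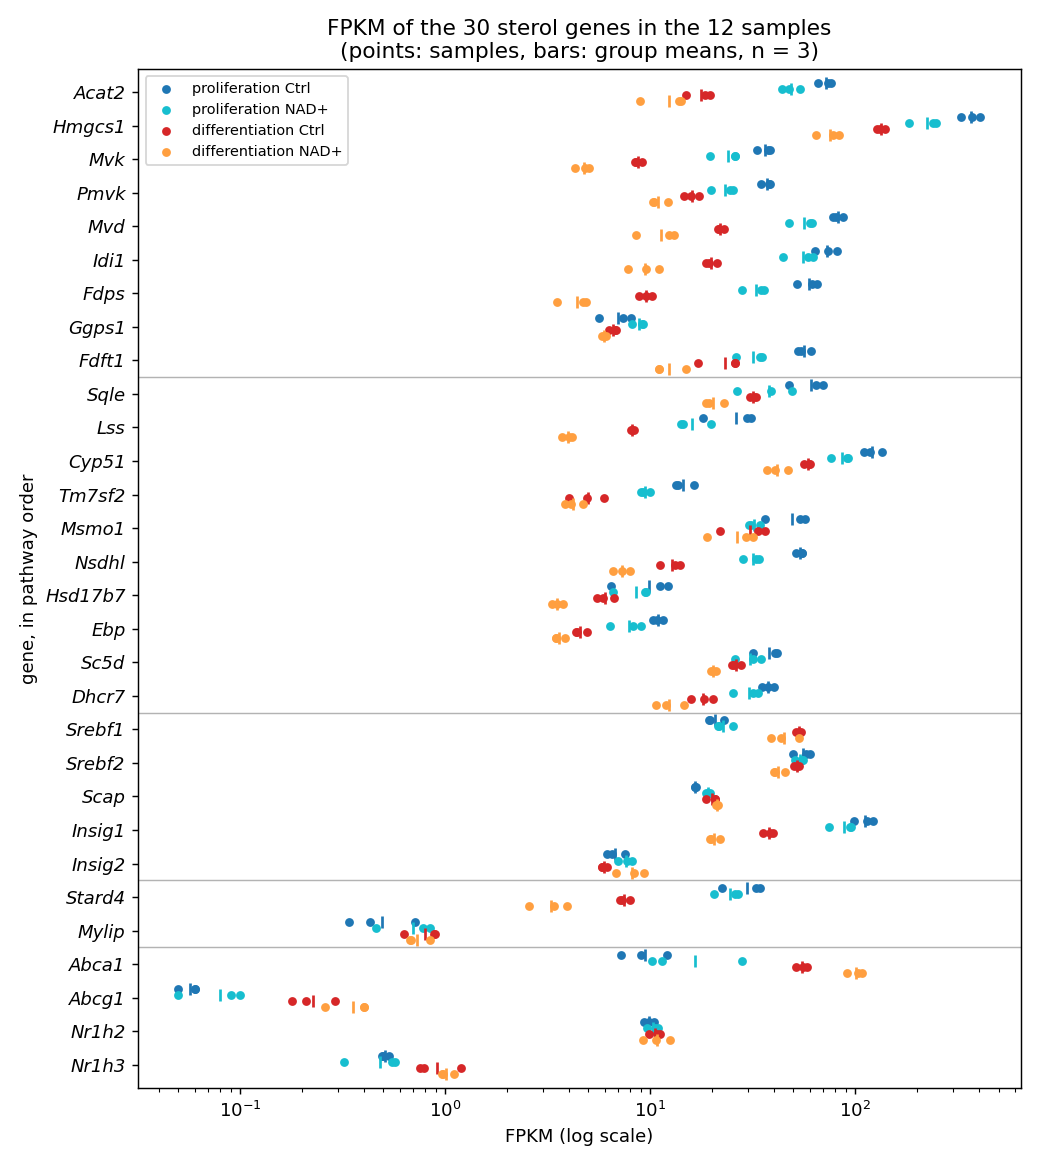
FPKM of each of the 30 genes on a log axis, with 1 point per sample (12 samples, 4 colours for the 4 groups) and a bar at each group mean (n = 3). Genes stand in pathway order with lines between roles. For most of the 19 enzymes the groups step down from proliferation Ctrl to proliferation NAD+ to differentiation Ctrl to differentiation NAD+, while Abca1, the first of the efflux genes, steps up.

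With NAD+ during differentiation, 16 of the 30 genes fell and 1, Abca1, rose at an adjusted p under 0.05 (limma on log2 of FPKM plus 0.1, Benjamini-Hochberg over 19611 genes), and 13 did not pass. Of all tested genes, 4.65% fell and 2.27% rose by the same rule. The median log2 fold change of the 30 genes was -0.52, against -0.09 over all tested genes. Among the enzymes 13 of 19 fell and none rose, with a median of -0.65. By stage, 7 of the 9 enzymes before squalene fell, 6 of the 10 after it, 2 of the 5 regulators (Insig1 and Srebf2), and 1 of the 2 uptake and transport genes (Stard4). The 3 samples with NAD+ lay wholly below the 3 Ctrl samples for 20 genes and wholly above for 3 (Abca1, Insig2 and Scap), a pattern that 21.1% and 9.68% of all tested genes showed. The count of 17 calls was 8 without differentiation Ctrl replicate 1 and 9 without differentiation Ctrl replicate 3. The study's own rule, an unadjusted p under 0.05 with a fold over 2, was also applied, with the limma p in place of the study's. By that rule 4 genes (Idi1, Fdps, Lss and Stard4) passed, all lower with NAD+. Of all 19611 tested genes, 530 were lower and 267 higher by the same rule.

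**Figure D2:**
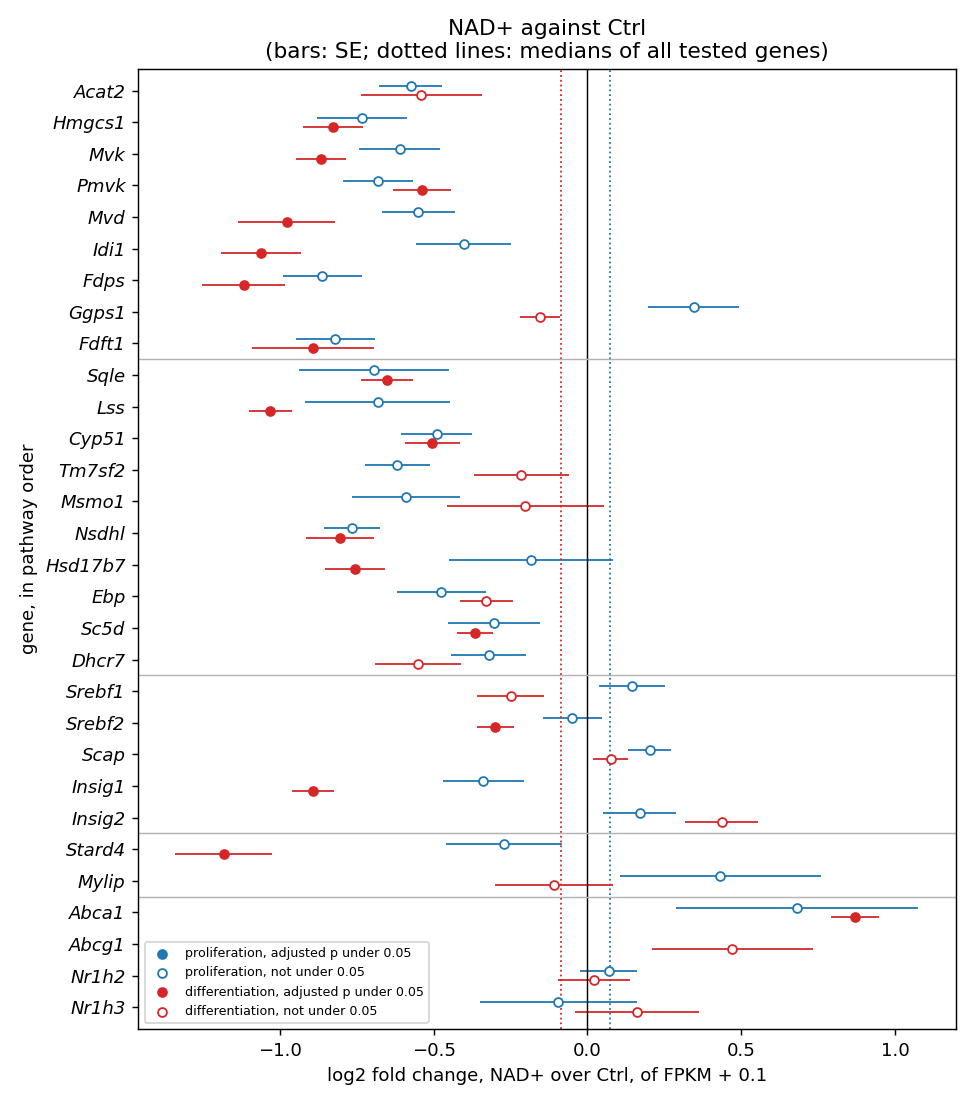
Log2 fold change of NAD+ over Ctrl (FPKM plus 0.1) for the 30 genes in proliferation (blue) and differentiation (red), with bars for the standard error and filled points for an adjusted p under 0.05. Dotted lines mark the medians of all tested genes, 0.07 in proliferation and -0.09 in differentiation. In differentiation 17 points are filled, 16 of them left of 0, and in proliferation none is. Abcg1 was under the FPKM filter in proliferation and has no blue point.

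The first enzymes of the pathway lead up to HMG-CoA. Hmgcs1, which makes HMG-CoA and lies at chr13:119690379-119708260, stood at 139.8, 128 and 132 FPKM in the differentiation Ctrl samples and at 83.4, 78.3 and 64.7 FPKM with NAD+. All 3 NAD+ samples were below all Ctrl samples, and the log2 fold change was -0.83 ± 0.10 (SE, n = 3 per group, adjusted p = 0.0095). In proliferation the samples with NAD+ were also below, at 183, 239 and 248 FPKM against 329, 369 and 408 FPKM in Ctrl, but the adjusted p was 0.12. Acat2, the cytosolic thiolase at the entry to the pathway, measured 76.5, 73.4 and 66.1 FPKM in proliferation Ctrl and 47.4, 53.7 and 44.1 FPKM with NAD+. The groups did not overlap, and the log2 fold change was -0.57 ± 0.10 with an adjusted p of 0.099. In differentiation Acat2 was at 14.9, 18.6 and 19.5 FPKM in Ctrl and 13.8, 14.2 and 8.93 FPKM with NAD+, again without overlap and without passing (log2 fold change -0.54 ± 0.20, adjusted p = 0.16). Acat2 has a close paralogue, Acat3, with which reads may be shared.

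The mevalonate kinases and the decarboxylase turn mevalonate into isopentenyl diphosphate. Mvk, mevalonate kinase, was at 8.41, 8.51 and 9.15 FPKM in differentiation Ctrl and 4.83, 5.04 and 4.32 FPKM with NAD+. The groups were clear of each other, and Mvk fell by a log2 fold change of -0.87 ± 0.08 (adjusted p = 0.0056). Pmvk, phosphomevalonate kinase, fell from 17.4, 14.7 and 15.8 FPKM to 10.4, 12.2 and 10.3 FPKM, with a log2 fold change of -0.54 ± 0.09 (adjusted p = 0.026). The fall of Pmvk was the smaller of the 2 kinases, and its highest NAD+ sample still lay under its lowest Ctrl sample, but the call held in 7 of 13 alternative fits. Mvd, the decarboxylase, measured 22.9, 21.3 and 21.7 FPKM in Ctrl and 13.0, 12.3 and 8.53 FPKM with NAD+ (log2 fold change -0.98 ± 0.16, adjusted p = 0.02). Replicate 3 of the NAD+ group was the lowest of the 6 samples for Mvd, and the other NAD+ samples were also below every Ctrl sample. In proliferation the log2 fold changes of Mvk, Pmvk and Mvd were -0.61 ± 0.13, -0.68 ± 0.11 and -0.55 ± 0.12, none of which passed. For Pmvk these rested on 38.0, 34.6 and 38.3 FPKM in Ctrl and 19.7, 24.5 and 25.3 FPKM with NAD+, groups that did not overlap (adjusted p = 0.087).

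In differentiation the 2 largest falls among the enzymes were in Fdps and Idi1, which build farnesyl diphosphate. Idi1, the isomerase of the isoprene units, was at 21.1, 18.7 and 19.3 FPKM in differentiation Ctrl and 11.1, 9.54 and 7.81 FPKM with NAD+. The NAD+ samples were all well under the Ctrl samples, and the log2 fold change was -1.06 ± 0.13 (adjusted p = 0.01). Fdps, farnesyl diphosphate synthase at chr3:89093588-89101959, was at 9.56, 8.86 and 10.2 FPKM in Ctrl and 4.89, 4.71 and 3.52 FPKM with NAD+ (log2 fold change -1.12 ± 0.14, adjusted p = 0.0099). In proliferation Fdps was at 61.7, 52.2 and 65.0 FPKM in Ctrl and 28.1, 35.8 and 34.6 FPKM with NAD+. The Fdps groups were separate there too, at a log2 fold change of -0.86 ± 0.13 and an adjusted p of 0.07. Fdps shares 26.7% of its exonic length with Gm43738 on the same strand, so its reads could be split between the 2 genes. Fdft1, squalene synthase, was at 26.1, 17.1 and 26.0 FPKM in differentiation Ctrl and 14.9, 11.0 and 11.0 FPKM with NAD+. Differentiation Ctrl replicate 2 was far below the other Ctrl samples for Fdft1, the groups still did not overlap, and its fall (log2 fold change -0.89 ± 0.20, adjusted p = 0.049) held in 3 of 13 alternative fits. In proliferation Fdft1 was at 52.7, 54.6 and 60.7 FPKM in Ctrl and 26.3, 34.2 and 35.1 FPKM with NAD+ (log2 fold change -0.82 ± 0.13, adjusted p = 0.079). Fdft1 overlaps Ctsb on the opposite strand over 18.3% of its exonic length. Ggps1, which sends farnesyl diphosphate to geranylgeranyl diphosphate for protein prenylation instead of sterols, was the 1 enzyme with a log2 fold change above 0 in proliferation, 0.34 ± 0.15 (adjusted p = 0.33), and had -0.15 ± 0.06 in differentiation (adjusted p = 0.21).

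Downstream of squalene, Lss had the smallest p of the 30 genes in differentiation. Lss, lanosterol synthase at chr10:76531588-76557138, which closes the sterol rings, was at 8.36, 8.04 and 8.17 FPKM in Ctrl and 4.02, 4.16 and 3.71 FPKM with NAD+. The spread within each group was small beside the gap between them, and the log2 fold change was -1.03 ± 0.07 (adjusted p = 0.0033). In proliferation the Lss groups overlapped, with 18.1, 29.6 and 31.1 FPKM in Ctrl and 14.4, 14.1 and 19.7 FPKM with NAD+. Sqle, squalene epoxidase, fell from 32.0, 30.7 and 32.9 FPKM to 22.9, 19.4 and 18.8 FPKM (log2 fold change -0.65 ± 0.08, adjusted p = 0.012). Its Ctrl samples agreed closely and stood above all NAD+ samples. Cyp51, lanosterol demethylase, fell from 60.0, 56.4 and 59.7 FPKM to 46.9, 40.6 and 37.0 FPKM (log2 fold change -0.50 ± 0.09, adjusted p = 0.026), with no overlap, and the call held in 7 of 13 alternative fits.

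Of the enzymes that strip methyl groups and move double bonds, Nsdhl was lower with NAD+ by a like amount in both growth conditions. Nsdhl, a sterol dehydrogenase of the demethylation complex, measured 55.2, 51.4 and 54.8 FPKM in proliferation Ctrl and 28.3, 32.9 and 33.8 FPKM with NAD+, and 14.0, 11.2 and 13.2 FPKM in differentiation Ctrl and 7.97, 7.27 and 6.57 FPKM with NAD+. Neither pair of groups overlapped. The log2 fold changes were -0.77 ± 0.09 in proliferation, where the adjusted p of 0.051 was the smallest of the 29 genes tested, and -0.80 ± 0.11 in differentiation (adjusted p = 0.014). Hsd17b7, a keto-sterol reductase, fell from 6.69, 5.52 and 5.91 FPKM to 3.51, 3.77 and 3.31 FPKM in differentiation (log2 fold change -0.76 ± 0.10, adjusted p = 0.012). Its groups were apart in differentiation and overlapped in proliferation. Sc5d, a sterol desaturase, fell from 25.7, 25.1 and 27.9 FPKM to 20.9, 19.8 and 20.3 FPKM, the smallest fall among the called enzymes (log2 fold change -0.37 ± 0.06, adjusted p = 0.019). The call of Sc5d held in 7 of 13 alternative fits and was lost under median-ratio scaling. Tm7sf2, a sterol reductase that overlaps Vps51 on the same strand over 12.1% of its exonic length, was at 16.4, 13.7 and 13.4 FPKM in proliferation Ctrl and 9.21, 9.02 and 9.95 FPKM with NAD+. The groups did not overlap (log2 fold change -0.62 ± 0.11, adjusted p = 0.089), but in differentiation they did, at 5.94, 4.03 and 4.90 FPKM in Ctrl and 4.70, 3.86 and 4.10 FPKM with NAD+. Msmo1, a methylsterol oxidase, Ebp, an isomerase, and Dhcr7, the reductase of the last double bond, did not pass in differentiation, with log2 fold changes of -0.20 ± 0.26, -0.33 ± 0.09 and -0.55 ± 0.14 (adjusted p = 0.68, 0.078 and 0.069).

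Among the regulators, Insig1 moved most. Insig1, the retention protein that is itself a sterol-regulated gene and lies at chr5:28071363-28078662, was at 39.6, 35.7 and 38.4 FPKM in differentiation Ctrl and 21.9, 19.5 and 19.7 FPKM with NAD+. The 2 groups were far apart, and the log2 fold change was -0.89 ± 0.07 (adjusted p = 0.0037). In proliferation Insig1 was at 98.2, 114 and 122 FPKM in Ctrl and 74.8, 94.8 and 95.6 FPKM with NAD+, which did not pass (log2 fold change -0.34 ± 0.13, adjusted p = 0.29). Insig2, its relative, lay in the other direction in differentiation, with NAD+ samples above Ctrl samples and a log2 fold change of 0.44 ± 0.12 that did not pass (adjusted p = 0.083). Srebf2, which encodes the SREBP most tied to cholesterol genes, fell from 53.3, 50.2 and 51.8 FPKM to 45.4, 40.4 and 40.6 FPKM, by a log2 fold change of -0.30 ± 0.06 (adjusted p = 0.038). The Srebf2 groups did not overlap, the fall was small beside those of the enzymes, and it held in 4 of 13 alternative fits. Srebf1, which encodes the SREBP more tied to fatty acid genes, was at 51.7, 54.6 and 53.4 FPKM in Ctrl and 52.9, 43.4 and 39.0 FPKM with NAD+ in differentiation. These Srebf1 groups overlapped (log2 fold change -0.25 ± 0.11, adjusted p = 0.23). Scap, the escort of the SREBPs, had log2 fold changes of 0.20 ± 0.07 in proliferation and 0.07 ± 0.06 in differentiation (adjusted p = 0.26 and 0.47).

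Outside synthesis, Stard4 had the lowest and Abca1 the highest log2 fold change of the 30 genes in differentiation, and the other transport, efflux and LXR genes did not pass. Stard4, which carries sterol between membranes inside the cell, was at 7.97, 7.16 and 7.32 FPKM in differentiation Ctrl and 3.92, 3.39 and 2.55 FPKM with NAD+. Its NAD+ samples were all below its Ctrl samples, and its log2 fold change of -1.18 ± 0.16 had an adjusted p of 0.012. Abca1, the pump that loads cholesterol onto apolipoproteins and a classic LXR target, at chr4:53030787-53159895, was at 51.5, 57.9 and 55.9 FPKM in Ctrl and 91.5, 103 and 108 FPKM with NAD+. Every NAD+ sample was above every Ctrl sample, and the log2 fold change was 0.87 ± 0.08 (adjusted p = 0.0049). In proliferation Abca1 was at 12.1, 9.07 and 7.23 FPKM in Ctrl and 28.1, 10.2 and 11.5 FPKM with NAD+. Replicate 1 of the NAD+ group stood far above the other samples there, and the groups overlapped (log2 fold change 0.68 ± 0.39, adjusted p = 0.44). Abcg1, a second efflux pump and LXR target, was at 0.21, 0.18 and 0.29 FPKM in differentiation Ctrl and 0.40, 0.40 and 0.26 FPKM with NAD+. The groups overlapped at these low values (log2 fold change 0.47 ± 0.26, adjusted p = 0.33). The 2 LXR genes themselves, Nr1h2 and Nr1h3, had log2 fold changes of 0.02 ± 0.12 and 0.16 ± 0.20 in differentiation, and Mylip, an LXR-induced ubiquitin ligase, -0.11 ± 0.19 (adjusted p = 0.94, 0.68 and 0.77).

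During proliferation no member passed the test at an adjusted p under 0.05 (limma, 29 of the 30 genes tested), and 0.145% of the 18597 genes tested did. At an unadjusted p under 0.05, 17 were lower with NAD+ and 1, Scap, was higher, against 6.05% and 9.35% of all tested genes. The samples with NAD+ lay wholly below the Ctrl samples for 15 genes and wholly above for 2, Ggps1 and Scap, against 8.59% and 15.5%. The median log2 fold change was -0.40 over the 29 genes and -0.59 over the 19 enzymes, against 0.07 over all tested genes. The enzymes accounted for 16 of the 17 lower genes, and Insig1 for the other. Without proliferation Ctrl replicate 1, 1 member passed: Msmo1, which stood at 36.2, 53.7 and 56.9 FPKM in Ctrl, the first of them the sample left out, and at 34.4, 30.3 and 31.1 FPKM with NAD+.

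**Figure D3:**
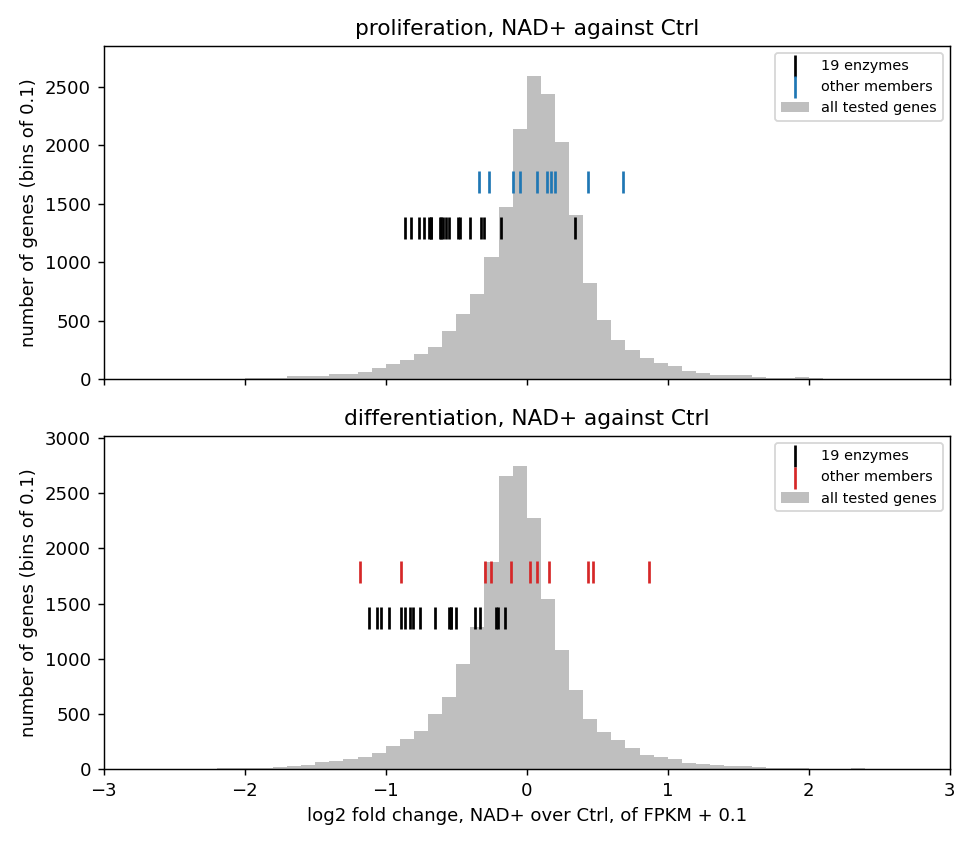
Number of tested genes by log2 fold change of NAD+ over Ctrl (FPKM plus 0.1), in bins of 0.1, in proliferation (top) and differentiation (bottom), drawn from -3 to 3. Ticks mark the 19 enzymes (black) and the other members (coloured), and their height has no meaning. The enzyme ticks run from -0.86 to 0.34 in proliferation and from -1.12 to -0.15 in differentiation, mostly left of the main body of genes.

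The NAD+ effect was then compared between the 2 conditions in a fit over all 12 samples. No member differed at an adjusted p under 0.05, with a smallest value of 0.14 for Insig1 (limma), and 0.467% of the 19498 genes tested did. At an unadjusted p under 0.05, 5 members differed, all with a lower fold change in differentiation: Stard4 by -0.91 ± 0.26, Idi1 by -0.66 ± 0.22, Insig1 by -0.55 ± 0.15, Ggps1 by -0.50 ± 0.17 and Srebf1 by -0.39 ± 0.16 on the log2 scale. Of all tested genes, 12.2% were lower and 3.35% higher by that rule, and the median difference was -0.16 over all tested genes and -0.08 over the members. For Fdps the difference was -0.26 ± 0.20 with an interval of -0.69 to 0.18, for Nsdhl -0.04 ± 0.15 with -0.36 to 0.29 and for Hmgcs1 -0.10 ± 0.19 with -0.50 to 0.31, at 95% confidence. A member that passed in differentiation and not in proliferation was therefore not shown to respond differently.

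Markers of other cells moved with NAD+ as well. The oligodendrocyte lineage markers summed to 1265 to 1379 FPKM in proliferation Ctrl and 1014 to 1045 with NAD+, and to 456 to 466 in differentiation Ctrl and 344 to 377 with NAD+. Of 6 astrocyte markers in differentiation, Gfap and Slc1a3 rose and Aldoc fell. By sign, 3 of the 6 were above 0 and 3 below, with a median log2 fold change of -0.07. Aqp4 and Gja1 had lower means with NAD+, 27.8 against 34.8 FPKM and 127 against 174 FPKM. The list summed to 1499.6 to 1622 FPKM in Ctrl and 1872 to 1985 with NAD+. Group means of the sum were 1562 and 1924 FPKM, and those of Gfap alone 595 and 977 FPKM. Gfap, the intermediate filament of astrocytes, was at 598, 546 and 642 FPKM in Ctrl and 999, 965 and 967 FPKM with NAD+. Of the 5 neural stem markers, 3 fell in differentiation by limma, Hes5 and Pax6 among them. By sign, 4 of the 5 were below 0 and 1 was above, with log2 fold changes from -0.89 to 0.23. None of the 6 neuron markers or 6 markers of dividing cells passed there by limma (0 and 2 at an unadjusted p under 0.05). In proliferation none of these markers passed, and at an unadjusted p under 0.05 there were 3 neural stem, 1 neuron, 2 astrocyte and 3 oligodendrocyte lineage markers, all lower. Olig1, the most abundant marker of the oligodendrocyte lineage, was at 1044, 897 and 942 FPKM in proliferation Ctrl and 725, 713 and 732 FPKM with NAD+ (log2 fold change -0.41 ± 0.10, adjusted p = 0.16). In bulk RNA, fewer cells of a type and less RNA per cell cannot be told apart, and the part of cell composition in the sterol gene results was not tested.

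Most of the sterol genes were lower in differentiation than in proliferation. Without NAD+, 20 of the 30 genes were lower and 5 higher in differentiation at an adjusted p under 0.05, against 31.6% and 25.0% of all tested genes, with a median log2 difference of -1.05 against -0.06. With NAD+, 21 were lower and 5 higher, against 37.6% and 20.8%, with a median of -1.08 against -0.20. Under quantile normalization the members' medians were -0.60 without NAD+ and -0.71 with it. Among the enzymes 18 of 19 were lower in each comparison, all but Ggps1 without NAD+ and all but Msmo1 with it. These comparisons run between separately deposited tables, share samples with the NAD+ comparisons, and go with lower markers of dividing cells: all 6 fell, with a median log2 difference of -4.98 without NAD+, and their part in the sterol gene results was not tested.

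**Figure D4:**
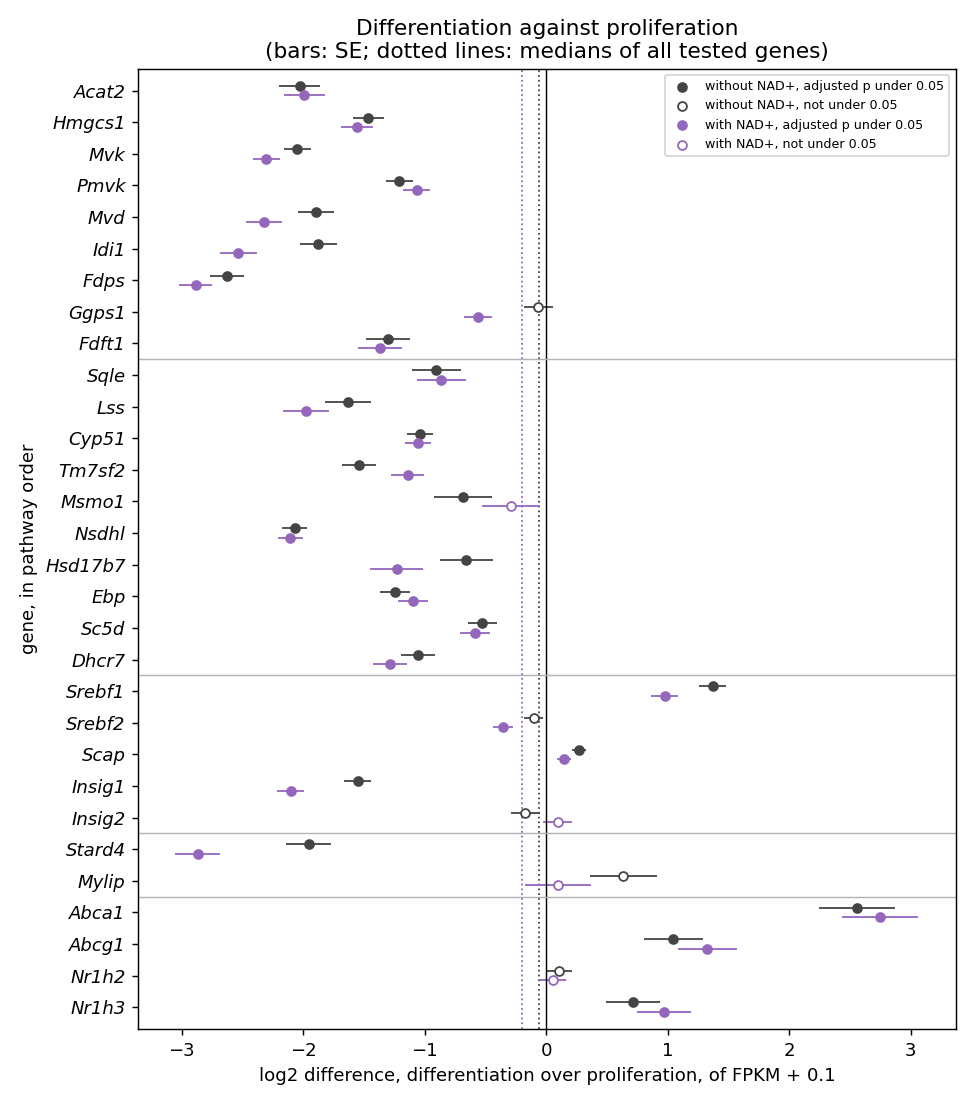
Log2 difference of differentiation over proliferation (FPKM plus 0.1) for the 30 genes without NAD+ (grey) and with NAD+ (purple), with bars for the standard error and filled points for an adjusted p under 0.05. Dotted lines mark the medians of all tested genes, -0.06 and -0.20. The enzymes lie left of 0, from -2.63 to -0.07 without NAD+, and Abca1, Abcg1, Srebf1 and Nr1h3 lie to the right.

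The largest falls without NAD+ were in Fdps at -2.63 ± 0.14, Nsdhl at -2.07 ± 0.10, Mvk at -2.05 ± 0.11 and Acat2 at -2.03 ± 0.17 on the log2 scale, with adjusted p-values of 8.3e-08, 5.8e-08, 1.2e-07 and 2.1e-06. In Mvk, for example, the proliferation Ctrl samples were at 37.5, 33.2 and 38.2 FPKM, far above every differentiation sample. With NAD+ the largest falls were in Fdps at -2.89 ± 0.14, Stard4 at -2.87 ± 0.19, Idi1 at -2.53 ± 0.15 and Mvd at -2.33 ± 0.15. Stard4 stood at 22.4, 32.8 and 34.2 FPKM in proliferation Ctrl and 20.5, 26.7 and 26.1 FPKM in proliferation NAD+, Idi1 at 63.7, 73.3 and 81.6 FPKM and 44.6, 59.2 and 62.5 FPKM, and Mvd at 81.0, 78.2 and 87.2 FPKM and 47.3, 60.3 and 61.5 FPKM. Efflux and LXR genes ran the other way. Abca1 was higher in differentiation by 2.56 ± 0.31 without NAD+ and 2.75 ± 0.31 with it, and Abcg1, at 0.06, 0.06 and 0.05 FPKM in proliferation Ctrl, by 1.05 ± 0.24 and 1.33 ± 0.24. Nr1h3, which encodes LXR alpha, was at 0.49, 0.53 and 0.50 FPKM in proliferation Ctrl and 0.75, 1.20 and 0.79 FPKM in differentiation Ctrl, and was higher by 0.71 ± 0.22 (adjusted p = 0.019), and by 0.97 ± 0.22 in the samples with NAD+. Nr1h2, which encodes LXR beta, was nearly level, at 10.4, 9.89 and 9.34 FPKM and 11.2, 9.88 and 10.8 FPKM (adjusted p = 0.44). Of the 2 SREBP genes, Srebf1 was higher in differentiation Ctrl than in proliferation Ctrl, where it was at 22.9, 19.4 and 19.5 FPKM, by 1.37 ± 0.11 (adjusted p = 2.2e-06) and by 0.97 ± 0.11 with NAD+, while Srebf2 had a log2 difference of -0.10 ± 0.08 that did not pass without NAD+ (adjusted p = 0.29). With NAD+, Srebf2 was lower in differentiation, by -0.35 ± 0.08 (adjusted p = 0.0029), from 50.7, 55.4 and 55.2 FPKM in the proliferation NAD+ samples.

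A further list of sterol genes held 36 names, of which 35 were in the tables and 34 were tested. In differentiation 6 of the 34 fell and 1 rose with NAD+, beside 4.65% and 2.27% of all tested genes, with a median log2 fold change of -0.04 against -0.09. In proliferation none passed (limma), and at an unadjusted p under 0.05, 3 were lower and 4 higher, beside 6.05% and 9.35% of all tested genes. The falls included Scarb1, a scavenger receptor for lipoproteins, from 3.56, 3.59 and 3.21 FPKM to 2.07, 2.13 and 1.77 FPKM (log2 fold change -0.77 ± 0.11, adjusted p = 0.014). Tmem97, a sterol-regulated membrane protein, fell from 15.2, 14.9 and 16.3 FPKM to 11.4, 8.06 and 10.3 FPKM (log2 fold change -0.65 ± 0.13, adjusted p = 0.035). Cyp7b1, an oxysterol hydroxylase, fell from 18.9, 18.0 and 18.0 FPKM to 14.9, 13.6 and 13.0 FPKM (log2 fold change -0.40 ± 0.07, adjusted p = 0.022). For each of these 3 genes the groups did not overlap. The 1 gene that rose was Soat1, which esterifies cholesterol for storage, from 24.5, 24.7 and 23.1 FPKM to 28.7, 29.2 and 27.4 FPKM (log2 fold change 0.24 ± 0.05, adjusted p = 0.047). In differentiation against proliferation without NAD+, 14 of the 34 were lower and 8 higher, beside the 31.6% and 25.0% of all tested genes, and the higher ones included Soat1 and Cyp46a1, which makes an oxysterol that leaves the brain, with log2 differences of 1.30 ± 0.08 and 2.21 ± 0.08.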

How the data were processed

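RNA-seq of 12 aNSPC samples was analysed. The deposited values are FPKM per gene, which the authors made after alignment to mm10 with Hisat2 and counting with FeatureCounts, in a table of 6 samples for each growth condition; the program that computed FPKM and whether strand was used are not given in the sources used here. Columns of the authors' own comparisons (fold change, p-value, q-value and regulation calls) were set aside, and of the columns with per-sample values 0 went unused. Genes whose FPKM averaged 0.1 or more in a fit were tested with limma 3.58.1 in R 4.3.3 (log2 of FPKM plus 0.1, intensity trend, empirical Bayes, two-sided, Benjamini-Hochberg over all tested genes), within each table for NAD+ and over 12 samples for the other comparisons. A fold change on this scale understates the change of low genes. The tests were tried on simulated data first. Precision rests on 3 samples per group, since FPKM keep no depth. Start-site regions came from RefSeq (GRCm38.p6), and gene positions and overlaps from GENCODE M21. Members, lists, tests and alternatives were chosen with earlier results of these data known. Values in every sample were given for members called in a NAD+ comparison, for the 6 with the smallest p in each, and for the 4 called members with the largest differences in each direction between growth conditions; called genes of the further sterol list were named, except that some genes of the lists are not reported here.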

Additional observations from a re-analysis of the deposited data

How the results depend on the processing

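The count of members called with NAD+ in differentiation, 17, was 14 to 17 with 1 or 0.01 added before log2, with no FPKM filter, with a mean FPKM of at least 1, and under median-ratio scaling or quantile normalization. It was 4 under the study's rule applied to the limma p, and 8 to 16 when 1 sample was left out. In proliferation, where 0 were called, 1 (Nsdhl) was called with 1 added, with a mean FPKM of at least 1 and under median-ratio scaling, 2 (Nsdhl and Fdps) were under quantile normalization, and 0 to 1 were when 1 sample was left out. The cause of these shifts was not tested. The difference between conditions called 0 members under every setting run. Its median over the members was -0.08 and reversed to 0.068 under median-ratio scaling, which moved the median of all tested genes by 0.14. The counts between growth conditions were 22 to 26 without NAD+ and 25 to 26 with it when 1 sample was left out. Median-ratio scaling also changed the balance of all calls. It went from 912 lower and 445 higher to 532 and 614 in differentiation, and from 18 and 9 to 26 and 7 in proliferation. For the difference it went from 48 and 43 to 24 and 69. Between growth conditions it went from 6164 and 4884 to 5358 and 5728 without NAD+. With NAD+ it went from 7336 and 4050 to 5406 and 5589. The median of all genes moved by 0.11 between growth conditions without NAD+ and by 0.25 with it. No named member changed direction in the settings run. Of the refits of single called members in differentiation, 176 kept the call and 45 lost it, none of them for Hmgcs1, Mvk, Idi1, Fdps, Lss, Hsd17b7, Insig1 or Abca1. The log2 difference of Abcg1 between growth conditions without NAD+ ran from 0.21 to 1.80 with the number added, since its FPKM are low.

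Whether same-numbered samples share a culture or animal is unknown, and correlations between samples cannot decide it. Deviations of same-numbered samples correlated at 0.11, 0.02 and 0.05 in proliferation and 0.04, 0.04 and 0.03 in differentiation. Those of differently numbered samples ran from -0.11 to 0.07 in proliferation and from -0.04 to -0.0025 in differentiation. In proliferation Ctrl replicate 3 correlated best with NAD+ replicate 2. Replicate 1 had the lowest sum of the 19 enzymes in both proliferation groups, 1116 FPKM in Ctrl and 678 FPKM with NAD+. Aqp4 was highest in replicate 1 of both, at 13.7, 5.82 and 5.23 FPKM in Ctrl and 9.95, 2.42 and 2.82 FPKM with NAD+. What these replicate 1 samples share was not tested. With the replicate block, 14 members were called in differentiation, 0 in proliferation, 25 without NAD+ and 25 with NAD+ between growth conditions.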

Other observations

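In each of the 4 groups a single sample was the lowest for most of the 19 enzymes. Proliferation NAD+ replicate 1 was the lowest of its group for 14 of the 19, differentiation Ctrl replicate 2 for 16, and differentiation NAD+ replicate 3 for 15. In proliferation Ctrl the lowest sample varied more, with replicate 1 lowest for 10, replicate 2 for 6 and replicate 3 for 3. Replicate 3 of that group was the highest for 15. The same proliferation NAD+ replicate 1 had the highest Abca1 of its condition, 28.1 FPKM.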
